A study of Sus scrofa with 18 samples.

Results

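Ion channel genes were followed in right ventricular free wall from 9 pigs, with 1 array per animal at baseline and 1 in failure brought on by ligation of coronary arteries. The genes were those with a single symbol in the probe table that begins with KCN, SCN and a digit, CACN, HCN and a digit, or CLCN. Of 6765 genes named in this way on the array, 29 were members: 21 potassium channel genes, 5 calcium channel genes and 3 CLCN genes, with 0 SCN and 0 HCN genes named. Each gene was read from its brightest probe set, the one with the highest mean over the 18 arrays. The animals were of mixed breed (Hampshire, Yorkshire, Swedish Landrace), and the labels give no age. Failure samples of pigs 6, 8, 9, 11, 12 and 13 carry a label of 120 min of ischemia (label set 1). For pigs 5, 10 and 14, animals of 30 to 40 kg, failure was defined by a right atrial pressure above 20 mmHg (label set 2). The 18 arrays hold no animal that was sampled at both times without ligation.

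Voltage-gated channels open when the membrane depolarises, and in heart muscle their order of opening shapes the action potential: sodium channels give the upstroke, L-type calcium channels the plateau, and potassium channels the return to rest. Potassium inward rectifiers pass current near the resting potential and include channels gated by ATP or by acetylcholine. Many members encode no pore at all but accessory subunits, which set how many channels reach the membrane and how fast they open and close. CACNA1C and HCN4, pore genes of the L-type calcium and pacemaker currents, were not analysed here. Of 33 genes listed for the main currents of ventricle, pacemaker tissue and vascular muscle, 12 were measured.

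All 8 measured markers of ventricular muscle lay above the 75th percentile of the arrays at baseline, among them MYL2 at 14.73 ± 0.08 (SD, n = 9). Values are log2 intensities, on which a difference of 1 is a doubling. The 25th percentile, median and 75th percentile over all arrays were 3.97, 5.63 and 7.43. At baseline 20 of the 29 channel genes (69.0%) lay below the array median, against 27.2% of all named genes, and 10 lay below the 25th percentile. Brightness depends on the probe as well as on the transcript, so levels of different genes were set only against these marks and not against each other. Near the bottom of the range background makes up much of the signal, and a difference is understated.

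**Figure D1:**
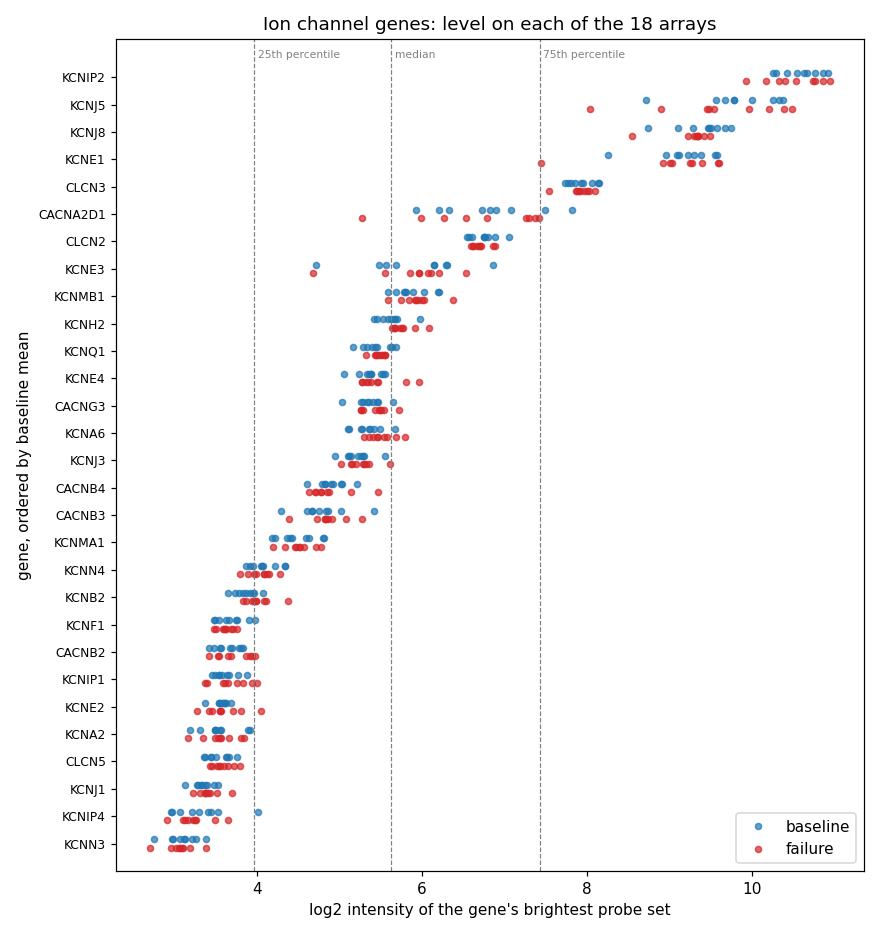
Log2 intensity (x axis) of the brightest probe set of each of the 29 ion channel genes (y axis, ordered by baseline mean) on every array; blue points are the 9 baseline samples, red points the 9 failure samples and dashed lines the array quartiles. Only KCNIP2, KCNJ5, KCNJ8, KCNE1 and CLCN3 have a baseline mean above the 75th percentile of 7.43, and in every gene the baseline and failure points overlap.

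Of the 29 genes, 0 passed an adjusted p of 0.05 for failure against baseline in limma's paired fit, in which 0.0668% of all 23935 tested probe sets passed. The adjusted p-values of the members ran from 0.785 to 0.997. An unmoderated paired test also gave 0. At an unadjusted p under 0.05 there were 2 members, KCNA6 and KCNH2, both with higher means in failure. This is 6.90% of the members, beside 5.54% of all named genes and 6.14% of all probe sets, so the share lay near the background. Mean changes were above 0 in 16 genes and below 0 in 13, with a median of 0.01, against -0.01 over all named genes. The means ran from -0.22 for KCNJ5 to 0.17 for KCNA6. For 2 genes (6.90%), KCNB2 and KCNJ1, both dim, 8 or more of the 9 pigs differed in one direction, beside 3.86% of all named genes.

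The data bound most differences narrowly. In 28 of the 29 genes the 95% interval of the mean change lay within 1.5-fold in either direction, and CACNA2D1 was the exception. The same held for 6692 of 6765 named genes. Because dim probe sets understate differences, the bound says most for the 9 members at or above the array median at baseline. These 9 include CACNA2D1 and KCNJ5, which had the widest intervals of all members (-0.61 to 0.37 and -0.55 to 0.10). In whole tissue, fewer cells of a type and less RNA per cell cannot be told apart.

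**Figure D2:**
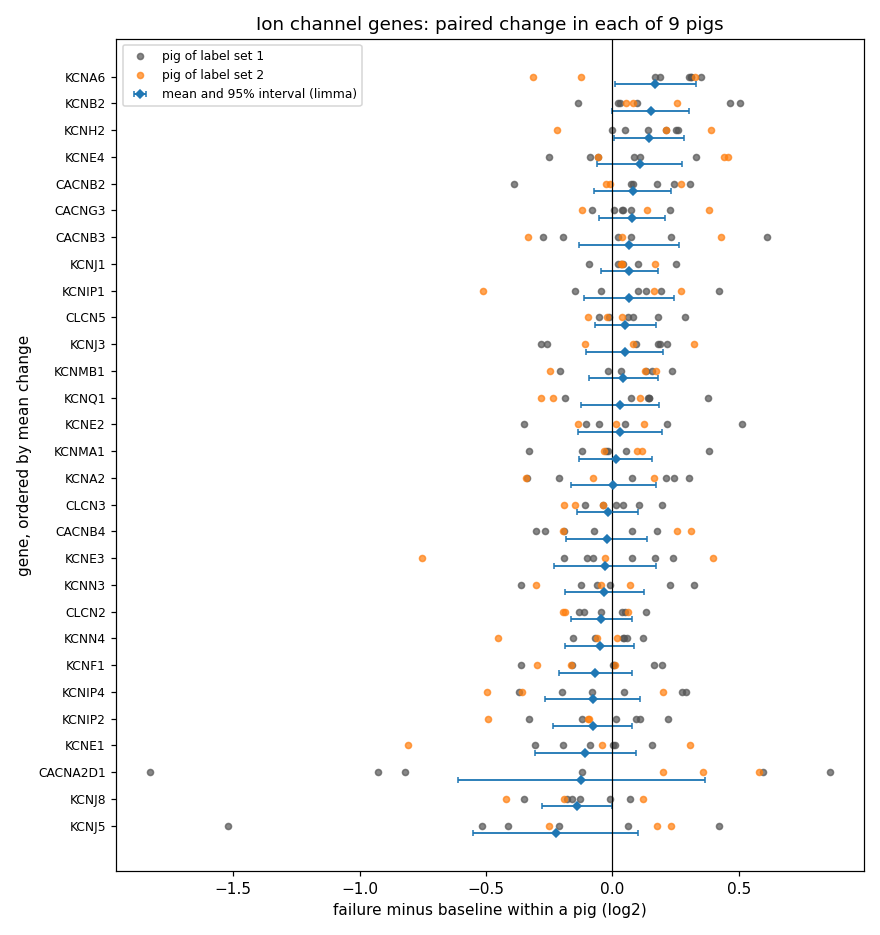
Failure minus baseline in log2 units (x axis) for each ion channel gene (y axis, ordered by mean change); grey points are the 6 pigs of label set 1, orange points the 3 pigs of label set 2, and blue diamonds the mean with its 95% interval from limma. The means lie between -0.22 and 0.17, while single pigs reach -1.83 for CACNA2D1 and -1.52 for KCNJ5.

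KCNH2 had the second smallest p of the members. It encodes the pore of the rapid delayed rectifier, which ends the plateau of the action potential. At baseline KCNH2 ran from 5.42 to 5.98 with a median of 5.63, and in failure from 5.64 to 6.09 with a median of 5.74. The groups overlapped, with 7 pigs higher in failure, pig 14 lower and pig 8 equal. The mean change was 0.14 (SE 0.06, 95% interval 0.00439 to 0.28, adjusted p = 0.801), and an exact two-sided sign-flip permutation test over the 9 pigs gave p = 0.0547 before adjustment, where the smallest p it allows is 0.00391. Without pig 5, which had the largest difference (0.39), the mean was 0.11. A dimmer KCNH2 probe set at 3.69 had a change of 0.06 (adjusted p = 0.947).

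KCNQ1, the pore of the slow delayed rectifier, lay between 5.17 and 5.69 at baseline and between 5.33 and 5.56 in failure. Its mean change was 0.03 (SE 0.07, adjusted p = 0.974), 6 pigs being higher and 3 lower. The other 3 KCNQ1 probe sets had changes of -0.02, 0.07 and -0.06, so all 4 were near 0.

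KCNE1 encodes the accessory subunit that slows KCNQ1 channels, and it lay above the 75th percentile. Baseline values ran from 8.25 to 9.58 (median 9.22) and failure values from 7.45 to 9.61 (median 9.25). Pig 5 was the lowest at both times, at 8.25 and 7.45, and had a change of -0.81, whereas the other 8 pigs differed by -0.31 to 0.31. The mean change was -0.11 (SE 0.09, adjusted p = 0.918) with all pigs and -0.02 without pig 5. The log2 signal of the GAPDH 3' probe set over that of its 5' probe set, which grows as RNA is degraded, was also highest in this pig, at 2.61 at baseline and 3.55 in failure against 0.31 to 2.17 in the other 8 pigs. With this GAPDH difference as a covariate the KCNE1 change was -0.01, near the value without pig 5. From baseline to failure the GAPDH difference rose by 0.94 in pig 5, 1.18 in pig 13 and 0.55 in pig 12. KCNE1 differed by -0.09 in pig 13 and by -0.31 in pig 12. What part RNA quality had in the pig 5 change was not tested. The other KCNE1 probe sets, both below the array median, did not show the low value of pig 5: they differed there by -0.16 and 0.11, and the first had its highest baseline value in that pig (5.42). Their mean changes were 0.03 and 0.04.

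Of the 5 channel genes above the 75th percentile, pig 5 was the lowest of 9 at baseline in 4 and in failure in 3. Over all 29 members pig 5 was the lowest at baseline in 5 and in failure in 4. Of the genes above the 75th percentile, those in failure were KCNE1, KCNJ8 and CLCN3, and KCNJ5 joined them at baseline. No share over all genes this bright is given, so these counts are not read as particular to channel genes. In failure pig 5 was also lowest for MYL2 (14.32) and CKM (13.36), but not for ACTC1 (14.05). It was highest there for DCN (13.21) and PECAM1 (10.77), but not for COL3A1 (5.62) or CDH5 (9.79). The GAPDH covariate bears on changes within pigs, not on levels. The part of RNA quality or cell makeup in these low values was not tested.

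The other KCNE genes encode related single-span subunits. KCNE3 varied more between pigs at baseline than any other channel gene, from 4.71 in pig 10 to 6.86 in pig 5 (SD 0.62, n = 9). In failure pig 10 was again the lowest, at 4.68, and the mean change was -0.03 (SE 0.09, adjusted p = 0.983). The other KCNE3 probe set, at a mean of 3.63, lay below the 25th percentile and had a change of 0.03. Its baseline spread is not given, so the wide spread of KCNE3 rests on the brightest probe set alone. KCNE4 had a mean change of 0.11 (SE 0.08, adjusted p = 0.899), carried by pigs 5, 6 and 14 with changes of 0.44, 0.33 and 0.46 and with the other 6 between -0.25 and 0.11. KCNE2 lay below the 25th percentile at both times and had a change of 0.03.

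KCNA6 and KCNA2 belong to the Shaker family of voltage-gated potassium channels. KCNA6 had the highest mean change of all members. It went from 5.34 ± 0.18 at baseline to 5.51 ± 0.16 in failure (SD, n = 9), a difference of 0.17 (SE 0.07, 95% interval 0.01 to 0.33, adjusted p = 0.785), and the exact sign-flip test gave p = 0.0664. Failure was higher in 7 of 9 pigs. All 6 pigs of label set 1 were among them, by 0.17 to 0.35, while in label set 2 pigs 5 and 10 were lower (-0.31 and -0.12) and pig 14 was higher (0.33). KCNA2 lay below the 25th percentile, with a mean change of 0.00349. KCNB2, of the Shab family, averaged 3.87 ± 0.13 at baseline, below the 25th percentile, and 4.02 ± 0.16 in failure (SD, n = 9). In 8 of 9 pigs failure was the higher, by at most 0.50, with a mean change of 0.15 (SE 0.07, adjusted p = 0.812). Its other probe set, at 3.14, had a change of -0.04. KCNF1, an electrically silent partner of Shab channels, was also dim (mean change -0.07, adjusted p = 0.937).

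KCNIP2 encodes a calcium-binding subunit of the channels that carry the transient outward current, the early notch of the action potential. It lay above the 75th percentile at baseline, at 10.59 ± 0.24 (SD, n = 9), and was at 10.52 ± 0.34 in failure. Baseline values spanned 10.25 to 10.93 and failure values 9.92 to 10.94. The groups overlapped almost fully, with 4 pigs higher and 5 lower, and the mean change was -0.08 (SE 0.07, 95% interval -0.23 to 0.08, adjusted p = 0.927). Pigs 5 and 9 had the lowest changes, -0.49 and -0.33. KCNIP1 and KCNIP4, relatives best known from neurons, lay below the 25th percentile, with mean changes of 0.06 and -0.08.

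Among the inward rectifiers, KCNJ8 encodes the pore of an ATP-sensitive channel known from vascular muscle. Its baseline values ran from 8.74 in pig 5 to 9.75 in pig 10 (median 9.48), and its failure values from 8.55 in pig 5 to 9.49 in pig 11 (median 9.33). Failure was lower in 7 of 9 pigs, and the mean change was -0.14 (SE 0.06, 95% interval -0.28 to 1.8e-05, adjusted p = 0.812; exact sign-flip p = 0.0547). The second probe set, at a mean of 8.45, had a change of -0.13 (adjusted p = 0.901), but the third, at 6.39, had one of 0.11 (adjusted p = 0.898). The mean of all 3 gave -0.05.

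KCNJ5 and KCNJ3 encode the subunits of the acetylcholine-activated potassium channel of atrium and pacemaker tissue. KCNJ5 had the lowest mean change of all members. At baseline it ran from 8.72 in pig 5 to 10.37 in pig 9 (median 9.79), and in failure from 8.04 in pig 8 to 10.49 in pig 14 (median 9.54). In pig 8 it went from 9.56 to 8.04, a difference of -1.52, while the other 8 pigs lay between -0.52 and 0.42. Failure was higher in 4 pigs and lower in 5, and the groups overlapped. The mean change was -0.22 (SE 0.15, 95% interval -0.55 to 0.10, adjusted p = 0.892) with all pigs and -0.06 without pig 8. Its spread between pigs (SD 0.58) was larger than that of 98.6% of named genes. In pig 8 the GAPDH difference was 0.80 at baseline and 1.05 in failure, against 0.31 to 3.55 over all arrays. Genes listed for atrial muscle differed in pig 8 by 0.71 (NPPA), 0.54 (MYL4) and 1.16 (SLN). Over all pigs NPPA was higher in failure in 8 of 9, MYL4 in 7 and SLN in 5. GJA5, a gap junction gene of atrium and conduction tissue, differed in pig 8 by -0.74. The part of RNA quality or atrial tissue in the pig 8 value was not tested. The second KCNJ5 probe set, below the array median with a mean level of 4.51, did not show the drop: in pig 8 it went from 4.01 to 4.33 (0.32), and its mean change was -0.04.

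KCNJ3 lay below the median, from 4.95 to 5.55 at baseline and from 5.02 to 5.61 in failure, with a mean change of 0.05 (SE 0.07, adjusted p = 0.956). KCNJ1, best known from the kidney, was dim at 3.35 and had a change of 0.07 with the smallest spread of all members (SD 0.10). By gene order in RefSeq (Sscrofa11.1), KCNJ1 and KCNJ5 are neighbours with 0 protein-coding genes between them, as are KCNIP1 and KCNMB1.

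**Figure D3:**
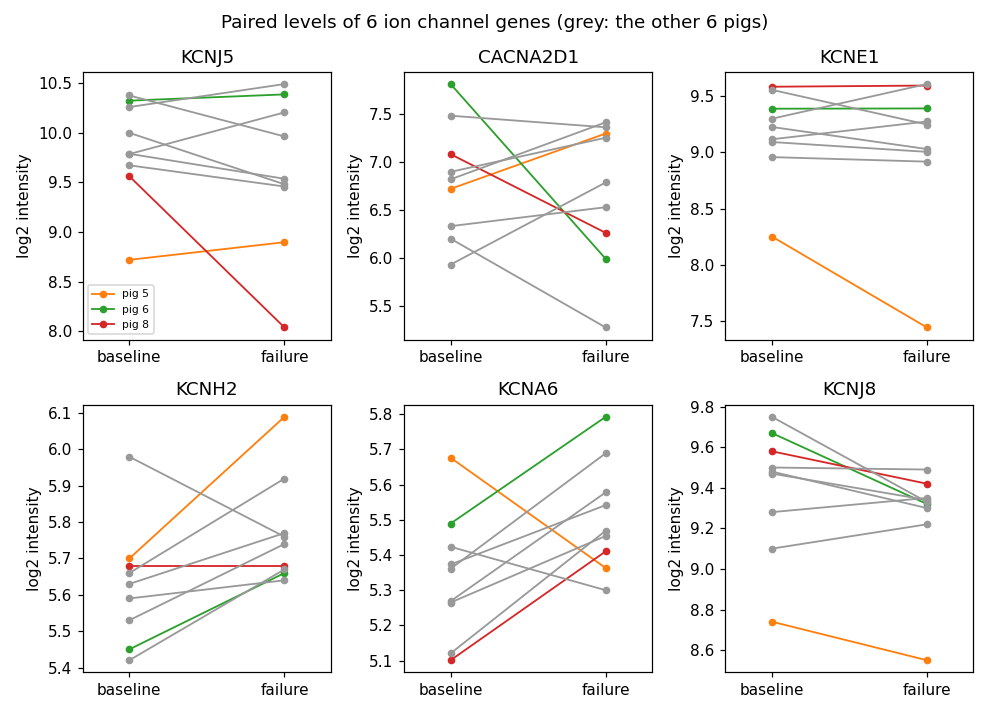
Log2 intensity (y axis) at baseline and in failure (x axis) of KCNJ5, CACNA2D1, KCNE1, KCNH2, KCNA6 and KCNJ8, with a line for each of the 9 pigs; pigs 5, 6 and 8 are coloured and the other 6 are grey. Pig 8 stands alone in KCNJ5 (9.56 to 8.04) and pig 5 in KCNE1 (8.25 to 7.45), and the lines of CACNA2D1 cross in both directions.

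Calcium-activated potassium channels link the membrane potential to cell calcium. KCNMA1, the pore of the large-conductance channel, lay between the 25th percentile and the median (4.49 ± 0.23 at baseline, 4.51 ± 0.18 in failure; SD, n = 9), with a mean change of 0.01 (SE 0.07, adjusted p = 0.993). KCNMB1, its smooth muscle subunit, differed by 0.04 on average (SE 0.06, adjusted p = 0.954) when read from the brightest probe set. A second KCNMB1 probe set at a mean level of 5.16 behaved differently between animals, with changes of 1.38 in pig 9, 1.09 in pig 10, 0.88 in pig 6, 0.49 in pig 5 and 0.28 in pig 14 and from -0.53 to -0.04 in the other 4. Its mean was 0.33 (SE 0.18, adjusted p = 0.850). ACTA2, a defining smooth muscle gene, had changes of 0.74, 0.80 and 0.61 in pigs 9, 10 and 6 and a mean of 0.26 (SE 0.11, adjusted p = 0.774). The sign of the second KCNMB1 probe set was shared by ACTA2 and by MYLK in 7 of 9 pigs each, but by TAGLN and by CNN1 in only 4 each. For the brightest probe set the counts were 6 for ACTA2, 7 for TAGLN, 5 for CNN1 and 6 for MYLK. In pig 9, TAGLN differed by -0.75 and MYLK by -0.10. All 4 measured smooth muscle markers had means above 0 (median 0.13) with none past the threshold, and their part in the KCNMB1 values was not tested. KCNN3 and KCNN4, of the small and intermediate conductance channels, had changes of -0.03 and -0.05 at levels near or below the 25th percentile.

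Calcium channels were represented by accessory subunits alone. CACNA2D1 encodes the alpha-2/delta subunit, which promotes surface expression of L-type channels, and its paired change had the largest SD over pigs of all members. At baseline it ran from 5.93 in pig 12 to 7.82 in pig 6 (median 6.82), and in failure from 5.27 in pig 9 to 7.42 in pig 13 (median 6.79). Pig 6 differed by -1.83, pig 9 by -0.93 and pig 8 by -0.82, whereas pigs 5, 12 and 13 differed by 0.58, 0.86 and 0.60. The mean was -0.12 (SE 0.23, 95% interval -0.61 to 0.37, adjusted p = 0.963), and it was 0.09 without pig 6. The SD of the change over pigs, 0.89, exceeded that of 99.7% of named genes, where the median SD was 0.21. The table names 1 probe set for this gene, so the variation could not be set against a second one.

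The beta subunits, which bring the pore to the membrane, lay below the array median. CACNB3 differed by -0.33 to 0.61 (mean 0.07, adjusted p = 0.951), CACNB4 by -0.30 to 0.31 (mean -0.02, adjusted p = 0.983) and CACNB2 by -0.39 to 0.31 (mean 0.08, adjusted p = 0.921). CACNG3, a gamma subunit gene known from the brain, lay at 5.36 and had a change of 0.08.

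**Figure D4:**
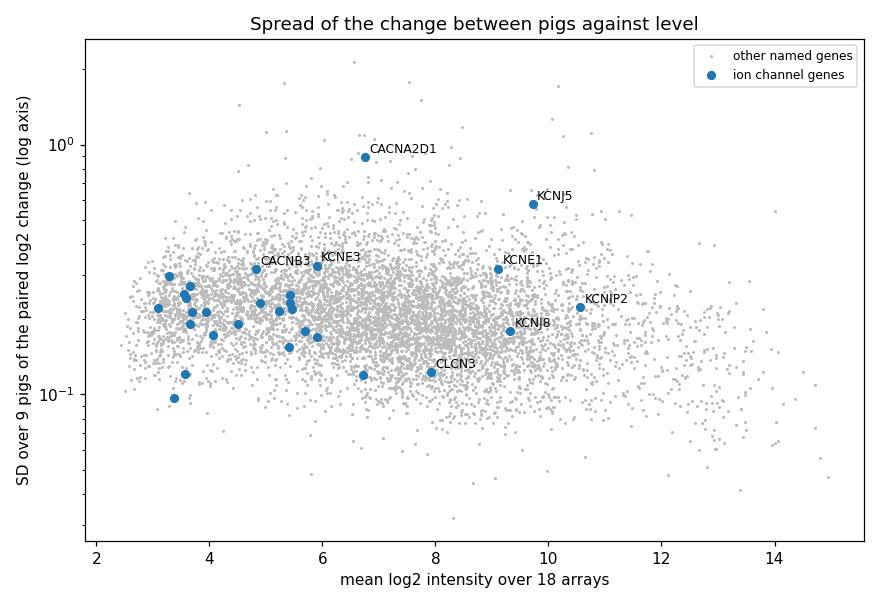
SD over 9 pigs of the paired log2 change (y axis, log scale) against mean log2 intensity over the 18 arrays (x axis) for named genes; blue points are the ion channel genes and grey points the other genes. CACNA2D1 (0.89) and KCNJ5 (0.58) stand above the other channel genes, whose SD lies between 0.10 and 0.33.

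The paired changes of the 3 CLCN genes had SDs of 0.12 over pigs, where the median over all named genes was 0.21. CLCN3, an endosomal chloride-proton exchanger, lay between 7.73 and 8.14 at baseline and between 7.54 and 8.10 in failure, with a mean change of -0.02 (SE 0.06, 95% interval -0.14 to 0.10, adjusted p = 0.982). Its other probe sets had changes of -0.06 and -0.00482. CLCN2, a chloride channel of the plasma membrane, went from 6.75 ± 0.16 to 6.71 ± 0.10 (SD, n = 9), a change of -0.04 (SE 0.06, adjusted p = 0.947). CLCN5, a relative of CLCN3 best known from the kidney, was dim, with a change of 0.05.

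Several probe sets existed for 15 of the 29 genes, giving 20 besides the brightest ones. These had changes from -0.13 to 0.33 and 0 passed the threshold in limma (smallest adjusted p 0.850). In 11 of the 15 genes the probe sets of 1 gene had means of both signs. In 7 genes, among them KCNH2, KCNE1 and KCNJ3, probe sets whose names carry the letter S and the letter A derive from the same accession. In the maker's naming these letters mark the orientation of the source sequence. For KCNH2 the S probe set lay just above the array median and the A probe set below the 25th percentile. The KCNE1 S probe set lay above the 75th percentile and the A probe set below the median. KCNJ3 was the other way round, with the S probe set below the 25th percentile and the A probe set between it and the median. The files used here hold no probe sequences, so which strand each reads was not checked. For KCNA2, KCNB2, KCNE2, KCNE3, KCNJ3 and KCNJ8 the values above come from an A probe set where another one carries S.

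**Figure D5:**
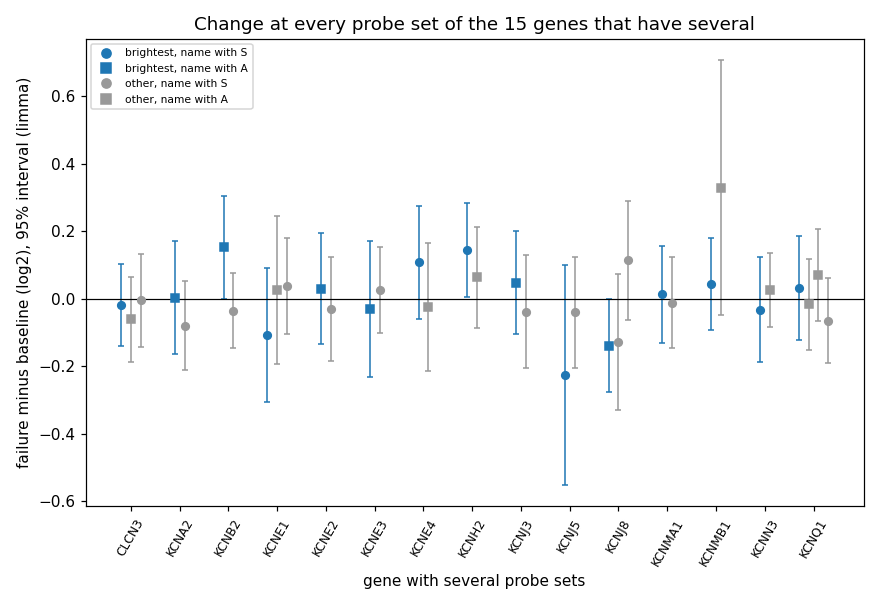
Mean failure minus baseline in log2 units with its 95% interval from limma (y axis) at each probe set of the 15 ion channel genes that have several (x axis); blue marks the brightest probe set, grey the others, circles names with S and squares names with A. The intervals include 0 at all of them except the brightest probe set of KCNH2, and the widest belongs to the second probe set of KCNMB1 (mean 0.33).

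The response was compared between the label sets, 6 pigs against 3, by an interaction in limma. Here 0 of 29 genes passed (smallest adjusted p 0.867), as did 0% of all probe sets. KCNA6 was the 1 member at an unadjusted p under 0.05, where 4.51% of named genes were. Its mean change was 0.27 ± 0.07 over the 6 pigs of label set 1 and -0.04 ± 0.33 over the 3 of label set 2 (SD). The next smallest p belonged to KCNQ1 (0.12 ± 0.18 and -0.14 ± 0.21), CACNA2D1 (-0.37 ± 1.01 and 0.38 ± 0.19), KCNE4 (0.02 ± 0.20 and 0.28 ± 0.29) and KCNIP2 (-0.00287 ± 0.20 and -0.23 ± 0.23), each with the SD over 6 and 3 pigs and adjusted p from 0.895 to 0.920.

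Genes that work with these channels were read from a list of 45 regulators, anchors, exchangers and gap junction proteins, of which 19 were measured. Of these 0 passed in limma (smallest adjusted p 0.753), with 9 means above 0, 10 below and a median of -0.00293. HEY2, a transcription factor of ventricular muscle, had the smallest p, with a change of -0.22 (SE 0.10, adjusted p = 0.753, lower in 6 of 9 pigs). It was read from the brightest of its 3 probe sets. HEY2 was the 1 member of the list at an unadjusted p under 0.05, which is 5.26% of the list beside 5.54% of all named genes. RANGRF, a trafficking partner of membrane channels, had a change of -0.12 and TRPM7, a cation channel with a kinase domain, one of 0.09.

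Markers of other cell types were read beside the channel genes. Of 4 red blood cell transcripts, 3 fell in limma (ALAS2, AHSP and HBM), each lower in 9 of 9 pigs, with ALAS2, the erythroid enzyme of haem synthesis, at -1.27 (SE 0.14, adjusted p = 0.00486). HBB, beta globin, did not pass (-0.24, adjusted p = 0.770), with 3 pigs higher in failure. The 3 genes listed for atrial muscle had means above 0, with NPPA at 1.11 (SE 0.30, adjusted p = 0.432) and higher in 8 of 9 pigs. Which cells of the tissue gave these transcripts was not tested. For ventricular muscle 7 of 8 means were below 0 (median -0.04), and for endothelium 5 of 6 were above 0 (median 0.02). Fibroblast genes had 3 of 4 means above 0 (median 0.07), leukocyte genes 2 of 5 (median -0.05), and genes of Schwann cells and neurons 2 of 4 (median 0.000462). Apart from these 3 red blood cell genes, 0 of these markers passed. The part of blood content or cell makeup in the channel values was not tested.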

How the data were processed

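Biotin-labelled cRNA was made from 250 ng of total RNA per sample with the GeneChip 3' IVT Express kit, per the labels' protocols. The values the authors deposited are on a log2 scale, 1 per probe set and array, and array medians ran from 5.59 to 5.66. The submitters' processing notes name Partek. How background was corrected and arrays were normalized is not given in the sources used here, and a shift common to most transcripts could have been removed.

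Without the 188 control probe sets, 23935 were fitted in limma 3.58.1 (R 4.3.3) with a term for each pig and moderated variances. Tests were two-sided, p-values were adjusted by the Benjamini-Hochberg method across the 23935, and the threshold was 0.05. The labels give the pairing of samples within pigs. Paired samples deviated together (r of 0.449 to 0.750), and 9 of 9 correlated best with their own partner. Precision is limited by having 9 animals.

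The platform table gives 1 gene for 10069 probe sets, several for 198 and does not list 13668. RefSeq (Sscrofa11.1) held the identifiers of 26 of 29 members. For KCNH2 and KCNJ8 the values carry at most 2 decimals. Of the genes with these prefixes, 1 is not reported here. Named members have the smallest p in either test, the widest spread, a role in the main currents or a pig far from the others; the rest are given briefly. Members, lists, tests and alternatives were chosen with earlier results of these data known. The fit was also run on simulated data with planted changes, and the share it recovered is not given here.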

Additional observations from a re-analysis of the deposited data

Results flagged for a closer look

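In 10 of 87 groups of values (baseline, failure and change of each gene over 9 pigs), 1 pig stood far from the other 8, by more than the Dixon criterion allows at 95%. For independent groups of normal values chance gives about 1 in 20, or 4.35 groups. The groups here are linked, because each change is failure minus baseline and the same pigs enter all of them. No share over all named genes is given, so the count is not read as particular to channel genes.

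Pig 5 accounts for 6 of the 10 flagged groups. KCNE1 in this pig was 8.25 at baseline (the others 8.96 to 9.58) and 7.45 in failure (8.92 to 9.61). KCNJ5 was 8.72 at baseline (9.56 to 10.37), KCNJ8 was 8.55 in failure (9.22 to 9.49), CLCN3 was 7.54 in failure (7.87 to 8.10) and the KCNN4 change was -0.45 (-0.15 to 0.12). The GAPDH 3'/5' difference was highest on the arrays of this pig (2.61 and 3.55), and with it as a covariate the mean changes were -0.01 for KCNE1, -0.30 for KCNJ5, -0.11 for KCNJ8, -0.02 for CLCN3 and -0.03 for KCNN4. Its part in the levels of this pig was not tested.

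In pig 8 the KCNJ5 change was -1.52 (the others -0.52 to 0.42) and the CACNB2 change was -0.39 (-0.03 to 0.31). The baseline value of KCNH2 was 5.98 in pig 14 (5.42 to 5.70), and that of KCNE2, a dim probe set, was 3.37 in pig 13 (3.54 to 3.69).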

How the results depend on the processing

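No channel gene passed the threshold under any alternative run, for failure against baseline or for the difference between label sets. This includes the fits with no replicate block, which gave 0 in both, so the pairing changed no call. Over genes and settings the smallest adjusted p was 0.472, in label set 1 alone. The count at an unadjusted p under 0.05, 2 in the paired fit, was 0 with no replicate block and 0 by exact sign-flip tests. It was 3 with pig as a random effect. It was 1 with a trend on the level, 1 with the mean of all probe sets, 1 in label set 1 alone and 1 in label set 2 alone. Leaving out each pig gave 0 to 3, with 0 without pig 6 or pig 13, 1 without pig 10 or pig 11 and 3 without pig 8. The median change of the channel genes, 0.01, was -0.0607 over the 10 with a mean at or above the array median, which are fewer genes, and -0.01 to 0.03 when each pig was left out. KCNA6 reversed in label set 2 alone (-0.0362), and the cause was not tested. In all, 36 of 590 combinations of gene and setting changed sign, in 16 genes, while 13 genes kept theirs. Probe sets near background limit what can be seen for the dim genes.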

Other observations

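The partner genes SLC8A1 and ANK3 also varied widely between pigs. They were chosen after their values were seen. SLC8A1, the sodium-calcium exchanger, differed by 0.85 in pig 5, -0.71 in pig 6 and -0.42 in pig 8, where CACNA2D1 differed by 0.58, -1.83 and -0.82. ANK3, an ankyrin that anchors membrane channels, differed by 0.78, -0.46 and -0.995 in the same pigs. In 5 other pigs SLC8A1, ANK3 or both had the opposite sign to CACNA2D1. In pigs 9 and 13, CACNA2D1 differed by -0.93 and 0.60, SLC8A1 by 0.05 and -0.11, and ANK3 by -0.11 and -0.01. In pig 10 CACNA2D1 differed by 0.36 and SLC8A1 by -0.09, in pig 11 CACNA2D1 by -0.12 and ANK3 by 0.19, and in pig 14 CACNA2D1 by 0.20 and ANK3 by -0.27.

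Partner genes in pig 8, in which KCNJ5 was lower by the most, were also picked after their values were seen. RRAD, an inhibitor of L-type calcium channels, differed there by -1.02. GJA5, a gap junction protein of atrium and conduction tissue, differed by -0.74 and HEY2 by -0.67. Each of these values was the lowest of the 9 pigs. The changes of ANK3, CALM2, ATP1B1 and CAMK2D were also lowest in pig 8. How many of all named genes had their lowest change in pig 8 is not given. The list is therefore not read as particular to partner genes. FGF12, FGF13, AKAP9, TRPM7 and BIN1 were higher in failure there, by 0.02 to 0.22. Ventricular muscle markers of this pig differed by -0.16 to 0.08.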
